A study of Mus musculus with 8 samples.

Results

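The insulin-like growth factor IGF1, its receptor and the IGF binding proteins were followed in mouse cancers of the gastric squamous-columnar junction (SCJ) and in normal SCJ tissue. The group was set by gene symbol as Igf1, Igf1r and Igfbp1 to Igfbp7, and all 9 genes were found among the 23361 genes of the deposited table. RNA-seq measured transcripts in 5 cancers and in 3 control samples of the SCJ compartment, to ask which genes differ between the cancers and the tissue they arise in. The cancers carried the label Trp53-/-Rb1-/- and grew in Lgr5eGFP-Ires-CreERT2 Trp53loxP/loxP Rb1loxP/loxP Ai9 mice, in which tamoxifen starts deletion of both genes and tdTomato expression in cells that use the Lgr5 promoter. They were dissected by their tdTomato border months after induction. By this design cells outside the targeted lineage, such as those of stroma and vessels, would keep both genes, which was not tested. The controls were labelled wild type and came from age-paired mice, and the sources used here do not say whether they received tamoxifen. Nothing in the labels ties a sample to its own animal, so the p-values measure the spread between these samples.

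IGF1 is a secreted hormone of the insulin family that is made in the liver under the control of growth hormone and also locally in connective tissue. It acts through the receptor tyrosine kinase IGF1R, which drives growth and survival through PI3K, AKT and mTOR. The IGF binding proteins IGFBP1 to IGFBP6 hold IGF1 and IGF2 with high affinity outside cells, and so carry, store or withhold them, whereas IGFBP7 binds IGFs weakly and is known as a matrix and vessel wall protein.

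Levels are FPKM, fragments scaled to transcript length and to the size of the library by an option not given in the sources used here, which allow levels of different genes to be compared. The deposited FPKM were rounded to whole numbers, so a step of 1 is coarse for genes at a few FPKM. Summed FPKM ran from 403569 to 573858 in the cancers and from 887141 to 992550 in the controls, where the 10 most abundant genes took 39.3% to 44.3% of the sum. The number of reads is unknown, and no counting interval is given. Of the deleted genes, Rb1 had FPKM of 4, 4, 5, 6 and 4 in the cancers, against 9, 9 and 10 in controls, whereas Trp53 ranged from 12 to 30 in the cancers and from 16 to 19 in the controls, with overlap. When every library was rescaled to the same sum (TPM), limma no longer called Rb1 (log2 fold change -0.05, adjusted p = 0.84, from -0.90 with FPKM) and called Trp53 higher (0.86, adjusted p = 0.020). Markers of gastric glands and of squamous forestomach were high in the controls (summed FPKM of 156314 to 237038 over 9 gland genes and of 1540 to 2580 over 6 squamous genes), as the tissue label says. Pgc, a chief and neck cell gene, was listed at 28832, 0 and 0 in the controls, so a listed 0 is not read as absence. Over 8 neuroendocrine markers the cancers summed to 8193 to 18373 FPKM and the controls to 127 to 191. By limma 8 of 8 were called higher, where 16.2% of all genes tested were. Cancers 1 and 5 stood apart. Cancer 1 had the least of both epithelia (692 and 0). The 12 hepatocyte markers summed to 4437, 1561, 1956, 1183 and 4380 FPKM in cancers 1 to 5 and to 72 to 102 in the controls. Most of this came from Ahsg and Ttr, the 2 of 12 called higher by limma, a number near the same 16.2%. Cancer 5 was the highest of all samples for 11 of the 12, with 5 of them listed at 0 in every other sample, and was the lowest cancer, ties included, for 10 of 10 fibroblast markers.

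Comparisons used limma on log2(FPKM + 1) over the 14357 genes that reached 1 FPKM in 3 or more samples, with Benjamini-Hochberg adjustment over all of them and a threshold of 0.05. Fold changes are on this scale, which understates the change of low genes. Of the 9 members 8 were tested, and all 8 had at least 1 FPKM in every sample. Igfbp3 and Igfbp4 rose in the cancers and Igf1r fell. That is 2 of 8 higher, where 16.2% of all genes tested were called higher, and 1 of 8 lower, where 18.3% were called lower, so the number of calls was near the background. For 3 of 8 the groups did not overlap, 2 with higher and 1 with lower cancers, against 34.1% of all genes tested (14.4% higher and 19.8% lower). Igfbp2, Igfbp6 and Igfbp7 differed by more than Igf1r on the log2 scale and did not pass. In Igfbp2 and Igfbp7 cancer 5 ran against the other 4 cancers, as the plot of levels by sample shows.

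**Figure D1:**
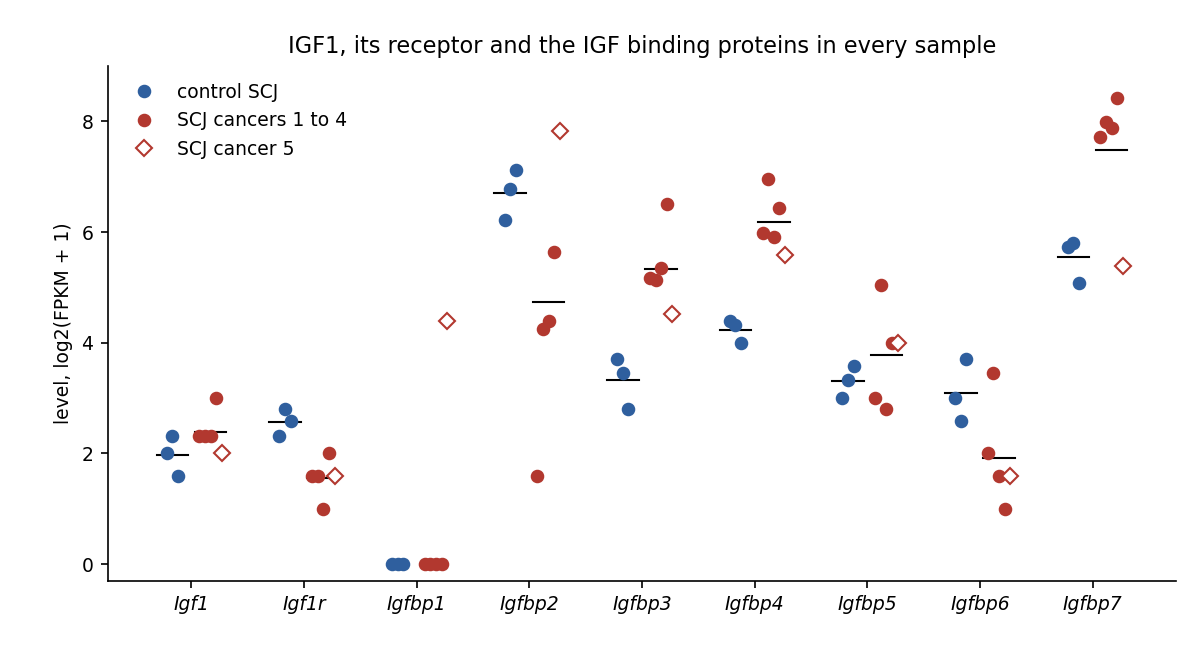
Level of each member on the log2(FPKM + 1) scale in the 3 control SCJ samples (blue) and the 5 SCJ cancers (red, cancer 5 as an open diamond), with group means on that scale as black lines except for Igfbp1, which is listed at 0 in 7 samples. Every cancer lay above every control for Igfbp3 and Igfbp4 and below every control for Igf1r, and cancer 5 went against the other cancers for Igfbp1, Igfbp2 and Igfbp7.

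Igf1, the ligand, was expressed at a low level that did not differ beyond the spread between samples. Its FPKM were 4, 4, 4, 7 and 3 in cancers 1 to 5 and 3, 4 and 2 in controls 1 to 3. Cancer 4 was the highest and the other 7 values were between 2 and 4. The log2 fold change was 0.42 (standard error, SE, 0.26, limma adjusted p = 0.23), and its 95% interval from -0.18 to 1.03 leaves room for a doubling but not for a large fall. The adjacent antisense transcript Igf1os overlaps Igf1 and was not used here. In RefSeq Igf1r also overlaps the noncoding genes Gm51488 and Gm51487, and Igfbp7 overlaps the noncoding gene Gm34648. The library kit keeps strand, but the sources used here do not say whether the counting used it.

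Igf1r, the receptor tyrosine kinase for IGF1, fell in the cancers. Its FPKM were 2, 2, 1, 3 and 2 in the cancers, against 4, 6 and 5 in controls. Every cancer was below every control. The mean was 2 ± 0.71 (SD, n = 5) against 5 ± 1 (SD, n = 3) FPKM, which gave a log2 fold change of -1.02 (SE 0.23, limma adjusted p = 0.015). The two-sided exact permutation test over all 56 assignments of the samples to groups gave p = 0.0179, the smallest value that 5 against 3 allow. The call was lost without control 2 (limma adjusted p = 0.063) or control 3 (limma adjusted p = 0.051). In bulk tissue, fewer cells that express a gene and less RNA per cell cannot be told apart.

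The deposited scale matters for such a change. With TPM, the log2 fold change of the median gene moved from -0.04 to 0.81. On that scale Igf1r had a log2 fold change of -0.33 and was no longer called (limma adjusted p = 0.36), and Igf1 had 1.26 and was called (limma adjusted p = 0.0082). Relative to the median of all genes, Igf1r stood at -0.98 with FPKM and -1.14 with TPM, and Igf1 at 0.46 and 0.45. The ratio of the ligand to its receptor within a sample does not depend on the scaling. Igf1 over Igf1r was 2, 2, 4, 2.33 and 1.5 in the cancers, against 0.75, 0.67 and 0.40 in controls, higher in each cancer than in each control. Rounding by up to 0.5 FPKM could bring the lowest cancer and the highest control to the same ratio, 1.

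**Figure D2:**
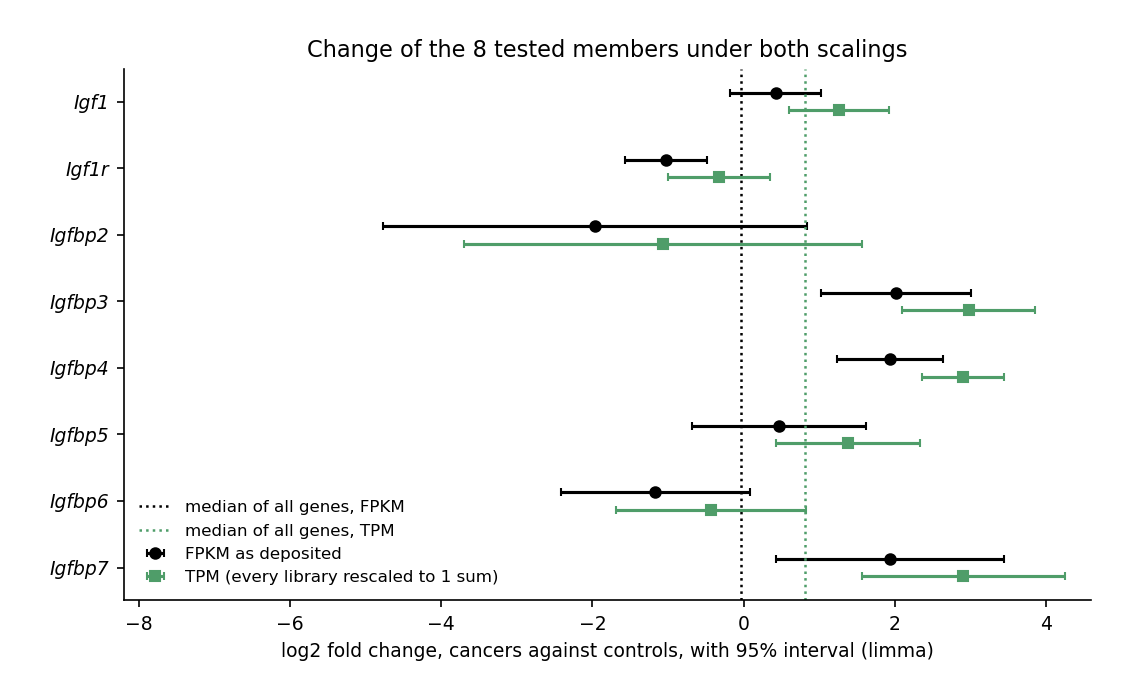
Log2 fold change of the 8 tested members, cancers against controls, with the 95% interval from limma, for FPKM as deposited (black) and for TPM (green). Dotted lines mark the median of all genes at -0.04 and 0.81. The members keep their order around the shifted median, with Igfbp3, Igfbp4 and Igfbp7 to the right of it under both scalings and Igf1r, Igfbp2 and Igfbp6 to the left.

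Igfbp3, the main carrier of IGFs in serum, rose about 4-fold. Its FPKM were 35, 34, 40, 90 and 22 in the cancers, against 12, 10 and 6 in controls. The lowest cancer, cancer 5, was still above the highest control. The log2 fold change was 2.02 (SE 0.43, limma adjusted p = 0.012; two-sided exact permutation p = 0.0179), or 4.04-fold on the fitted scale, and remained called when any one sample was left out (adjusted p up to 0.049 from limma).

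Igfbp4, which binds IGFs until the protease PAPP-A cleaves it, rose by a similar factor. Its FPKM were 62, 123, 59, 86 and 47 in the cancers, against 20, 19 and 15 in controls. The groups were far apart, with the lowest cancer more than 2 times the highest control. The log2 fold change was 1.94 (SE 0.30, limma adjusted p = 0.0041; two-sided exact permutation p = 0.0179), a fold of 3.82. With TPM, Igfbp3 had 2.98 and Igfbp4 2.91 (adjusted p of 0.0010 and 0.00024 from limma), so neither call depends on this scaling.

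Igfbp7 was the most abundant binding protein in cancers 1 to 4, and its difference from the controls did not pass the threshold over all samples. Its FPKM were 209, 252, 234, 341 and 41 in the cancers, against 52, 55 and 33 in controls. Cancers 1 to 4 were all far above the controls, whereas cancer 5 lay among them. The log2 fold change was 1.94 (SE 0.65, limma adjusted p = 0.052; two-sided exact permutation p = 0.107). Without cancer 5, the sample that ran against the difference, it was 2.46 (SE 0.25, limma adjusted p = 0.0020). No other single removal gave a call (limma adjusted p up to 0.16). Igfbp7 also passed with TPM, at 2.91 (limma adjusted p = 0.0047). The neighbouring gene Polr2b, an RNA polymerase subunit, shares 89 bases with Igfbp7 in RefSeq. Polr2b had FPKM of 12 to 22 in the cancers and 13 to 18 in the controls.

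Markers of other cell types also differed between samples. Summed over 10 fibroblast markers, FPKM were 254, 351, 360, 264 and 71 in cancers 1 to 5 and 135, 149 and 81 in the controls, so cancer 5, low in Igfbp7, was low in these as well. The sums overlapped between the groups, and 2 of 10 were called higher by limma, where 16.2% of all genes were. Of these markers Fap was listed at 0 in all 3 controls and in cancer 5, and the other 9 were above 0 in every sample. Over 8 endothelial markers the sums were 26 to 81 in the cancers and 13 to 19 in the controls, with 4 of 8 called higher by limma, and over 8 macrophage markers 146 to 317 and 37 to 50, also with 4 of 8 called higher, against the same 16.2% of all genes. With TPM 8 of 10 fibroblast, 7 of 8 endothelial and 8 of 8 macrophage markers were called higher, where 50.0% of all genes were. The following ratios were chosen after the values were seen. Igfbp7 per unit of summed fibroblast FPKM was 0.58 to 1.29 in the cancers and 0.37 to 0.41 in the controls, without overlap, and Igfbp3 was 0.097 to 0.34 against 0.067 to 0.089, also without overlap. Igfbp4 per fibroblast FPKM overlapped (0.16 to 0.66 against 0.13 to 0.19). Per summed endothelial FPKM all 3 overlapped between the groups, with Igfbp7 at 1.58 to 6.96 in the cancers and 1.94 to 4 in the controls. Per summed macrophage FPKM all 3 overlapped as well, with Igfbp7 at 0.22 to 2.34 against 0.89 to 1.13. The part of these cells in the results was not tested.

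**Figure D3:**
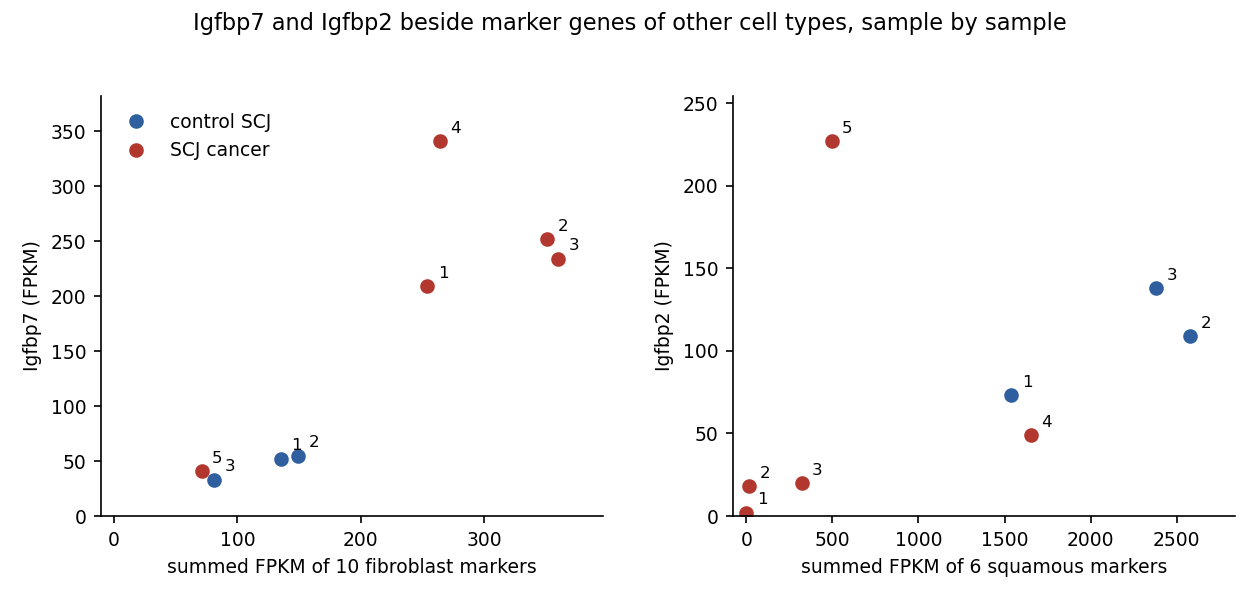
Left, Igfbp7 FPKM against the summed FPKM of 10 fibroblast markers. Right, Igfbp2 FPKM against the summed FPKM of 6 squamous markers. Each point is a sample, numbered within its group (controls blue, cancers red). Cancer 5 lies near control 3 on the left, at an Igfbp7 FPKM of 41 against 33, and above every other sample on the right, at an Igfbp2 FPKM of 227.

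Igfbp2 led the family in every control. It codes for a binding protein that is abundant in fetal tissues and in plasma. Its FPKM were 2, 18, 20, 49 and 227 in the cancers, against 73, 109 and 138 in controls. Cancers 1 to 4 were below every control and cancer 5 was above all of them. With these opposite values the log2 fold change of -1.96 had a SE of 1.21 and did not pass (limma adjusted p = 0.23; two-sided exact permutation p = 0.21). Without cancer 5 it was -2.74, still short of the threshold (SE 0.92, limma adjusted p = 0.063). Squamous markers summed to 0, 16, 321, 1653 and 496 FPKM in cancers 1 to 5, and gland markers to 692, 71685, 5578, 53307 and 15473. Cancer 1, with the least of both, had the lowest Igfbp2. The part of remaining normal epithelium in the Igfbp2 level was not tested.

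Igfbp1, made mainly by liver and decidua and repressed by insulin, was listed at 0 in all samples but cancer 5, where it had 20 FPKM. It did not pass the filter and was not tested in the main fit, and it was not called by limma in the run without a filter. The same pattern was seen in 5 of 12 hepatocyte markers. Fga, the fibrinogen alpha chain, was listed at 65 FPKM in cancer 5 and at 0 elsewhere, and Alb, serum albumin, at 266 FPKM there, at 1 to 58 in the other cancers and at 1 in each control. Other markers of the list differed from this pattern. Ahsg, fetuin A, had 2386, 647, 812, 492 and 2886 FPKM in the cancers, against 1, 2 and 1 in controls. Ttr, transthyretin, had 2011, 890, 1073, 668 and 455 FPKM in the cancers, against 66, 94 and 74 in controls, and was lowest among the cancers in cancer 5. Of the members and pathway genes that liver also makes, Igf1 was 3 FPKM in cancer 5, its lowest value among the cancers, and Igfals, the subunit that joins IGFs and IGFBP3 in serum, was listed at 1 in cancers 4 and 5 and at 0 in the other samples. Whether liver RNA contributed to Igfbp1 and Igfbp2 in cancer 5 was not tested.

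The genes of 4 binding proteins lie in 2 neighbouring pairs. In the coordinates of the table (mm10) Igfbp1 occupies chr11:7197787-7202546 and Igfbp3 chr11:7206091-7213923, on opposite strands with 3544 bases between their ends. Igfbp2 at chr1:72824480-72852471 and Igfbp5 at chr1:72858065-72874865 are likewise 5593 bases apart. Of the neighbours, Igfbp3 was at 6 FPKM or more in every sample where Igfbp1 was listed at 0, and Igfbp5 was 7 FPKM in cancer 1, where Igfbp2 was 2. Igf1 lies at chr10:87859056-87937047, Igf1r at chr7:67952257-68233667, Igfbp4 at chr11:99041260-99052643 and Igfbp6 at chr15:102144186-102149512. The locus given for Igfbp7, chr5:77310484-77408045, also spans Polr2b, and its RefSeq entry starts at 77349240.

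Promoters are shown for Igfbp1, listed above 0 only in cancer 5, and for its neighbour Igfbp3, which was above 0 in every sample. They are also shown for Igfbp2 and Igfbp7, the leading binding proteins of controls and of most cancers. Each line gives the 250 bases before the start of transcription, 5′ to 3′ on the strand of the gene, from RefSeq on GRCm38.p6, the assembly behind mm10. Capitals mark matches to short motifs on either strand. In Igfbp1 they mark GTTAAT, part of the site of the liver factor HNF1, and the letters CAAAACA, part of the insulin response element known in its promoter. In Igfbp3 they mark a box of the TATA type, searched as TATAAA and in the other form as TATATA. In Igfbp2 and Igfbp7 they mark GGGCGG, the GC box.
Igfbp1, chr11:7197537-7197786, plus strand: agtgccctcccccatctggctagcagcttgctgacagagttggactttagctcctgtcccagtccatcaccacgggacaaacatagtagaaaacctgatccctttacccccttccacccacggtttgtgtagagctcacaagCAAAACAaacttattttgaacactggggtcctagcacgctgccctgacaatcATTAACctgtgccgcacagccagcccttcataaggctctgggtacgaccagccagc
Igfbp3, chr11:7213924-7214173, minus strand: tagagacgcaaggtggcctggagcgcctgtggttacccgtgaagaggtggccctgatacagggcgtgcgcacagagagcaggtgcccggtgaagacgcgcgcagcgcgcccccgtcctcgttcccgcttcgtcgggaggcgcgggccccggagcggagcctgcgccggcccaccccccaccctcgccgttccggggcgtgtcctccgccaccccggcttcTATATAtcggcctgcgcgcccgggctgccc
Igfbp2, chr1:72824230-72824479, plus strand: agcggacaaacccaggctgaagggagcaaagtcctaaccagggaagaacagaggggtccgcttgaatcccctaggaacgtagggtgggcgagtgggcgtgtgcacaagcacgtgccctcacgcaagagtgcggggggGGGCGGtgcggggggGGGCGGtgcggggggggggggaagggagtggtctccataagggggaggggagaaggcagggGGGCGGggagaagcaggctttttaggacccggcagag
Igfbp7, chr5:77408046-77408295, minus strand: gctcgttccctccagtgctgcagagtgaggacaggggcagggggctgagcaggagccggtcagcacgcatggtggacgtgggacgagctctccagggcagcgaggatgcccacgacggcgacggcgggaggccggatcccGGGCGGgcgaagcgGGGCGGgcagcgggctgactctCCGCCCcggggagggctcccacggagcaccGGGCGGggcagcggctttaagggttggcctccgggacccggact

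All 9 members had a promoter entry. Among them only the Igfbp1 window held GTTAAT or CAAAACA, which occur in 6.43% and 5.56% of the 32851 mouse promoter windows of this length. A TATA box match stood 30 bases before the start of Igfbp3 and 28 before that of Igfbp4, the 2 genes that rose, and one stood 148 bases before that of Igfbp6, which was not called, where 15.6% of all windows hold a match. GC box matches numbered 4 in Igfbp7, 3 in Igfbp2 and 2 in Igf1r, and 32.7% of all windows hold at least 1. E2F matches (TTTCGCGC or TTTGGCGC), present in 0.655% of windows, were found in 0 of the 10 member windows. These are matches of letters and not measured binding.

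Igfbp5 and Igfbp6 did not pass the test. Igfbp5, a binding protein held by extracellular matrix, had FPKM of 7, 32, 6, 15 and 15 in the cancers, against 7, 9 and 11 in controls (log2 fold change 0.47, 95% interval -0.68 to 1.61, limma adjusted p = 0.48). Cancer 2 was the highest, and the groups overlapped. Igfbp5 passed with TPM (1.39, limma adjusted p = 0.023), where it stood at 0.58 above the median of all genes. Igfbp6, which prefers IGF2 over IGF1, had FPKM of 3, 10, 2, 1 and 2 in the cancers, against 7, 5 and 12 in controls. Cancer 2 lay among the controls and the other 4 cancers below them (log2 fold change -1.17, SE 0.54, limma adjusted p = 0.13). Without cancer 2, the sample that ran against the difference, Igfbp6 passed at -1.55 (limma adjusted p = 0.015). No other single removal gave a call (limma adjusted p up to 0.33). Cancer 2 also had the highest summed smooth muscle markers, at 1724 FPKM where the other cancers had 47 to 559 and the controls 365 to 562, and the part of these cells was not tested.

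The sum of the 7 binding proteins and the shares within it describe the family as a whole, although 2 of the 7, Igfbp3 and Igfbp4, were called. Igfbp1 to Igfbp7 summed to 318, 469, 361, 582 and 374 FPKM in the cancers and to 171, 207 and 215 in the controls. Every cancer was above every control, with FPKM and with TPM (788 to 1040 against 179 to 233), and most of the sum was Igfbp7 in cancers 1 to 4 and Igfbp2 in cancer 5. Within the sum, the share of Igfbp2 was 0.63%, 3.84%, 5.54%, 8.42% and 60.7% in cancers 1 to 5 and 42.7%, 52.7% and 64.2% in controls 1 to 3. The share of Igfbp7 was 65.7%, 53.7%, 64.8%, 58.6% and 11% in the cancers, against 30.4%, 26.6% and 15.3% in controls. Thus Igfbp7 led in cancers 1 to 4 and Igfbp2 in the controls, and cancer 5 was led by Igfbp2 like the controls. Averaged over the cancers, Igfbp2 took 15.8% ± 25.2 (SD, n = 5) and Igfbp7 50.8% ± 22.8 (SD, n = 5), and without cancer 5 the means were 4.61% and 60.7%. In the controls they were 53.2% ± 10.8 (SD, n = 3) and 24.1% ± 7.83 (SD, n = 3).

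Shares within a sample do not change with the scaling of the library. The share of Igfbp4 was higher in each cancer than in each control (12.6% to 26.2% against 6.98% to 11.7%), cancer 5 included. The share of Igfbp6 was lower in each cancer than in each control (0.17% to 2.13% against 2.42% to 5.58%), but rounding by up to 0.5 FPKM could close the gap between cancer 2 and control 2. The shares of Igfbp3 (5.88% to 15.5% against 2.79% to 7.02%) and Igfbp5 (1.66% to 6.82% against 4.09% to 5.12%) overlapped. Without Igfbp1 and Igfbp2, the other binding proteins summed to 127 FPKM in cancer 5 and to 316 to 533 in cancers 1 to 4, against 77 to 98 in the controls. These shares and sums are descriptions, with no test.

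**Figure D4:**
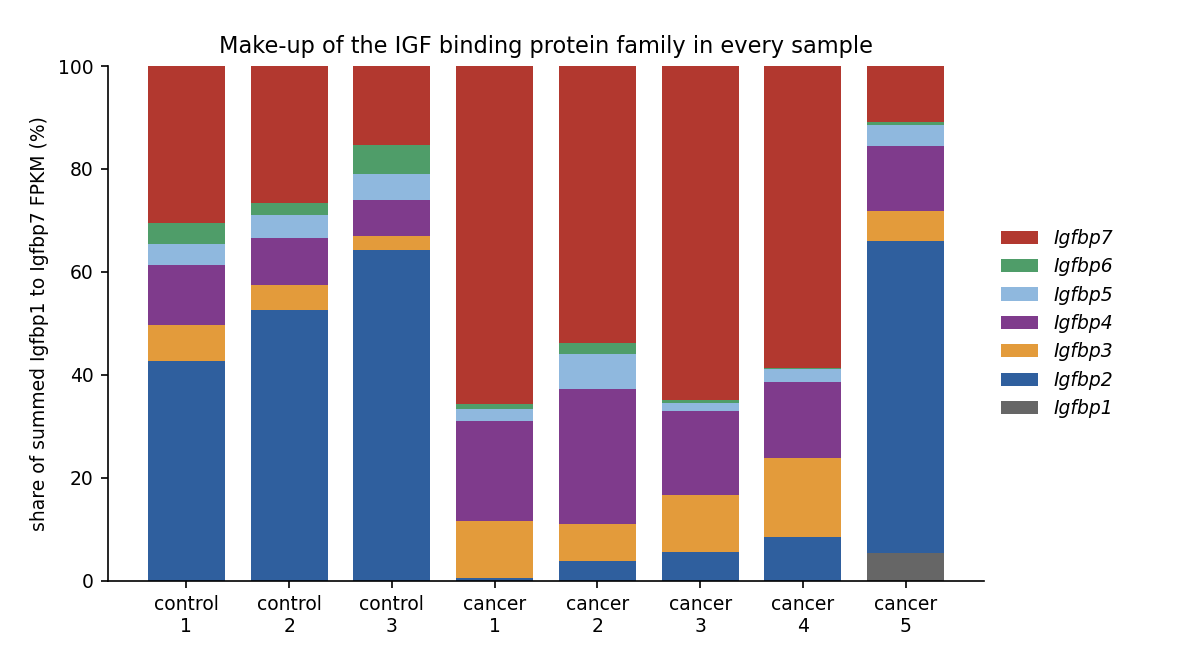
Share of each binding protein in the summed FPKM of Igfbp1 to Igfbp7, as stacked bars for each control and each cancer. Igfbp2 (dark blue) takes 42.7% to 64.2% in the controls and 60.7% in cancer 5, and Igfbp7 (red) takes 53.7% to 65.7% in cancers 1 to 4.

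The order of the levels differed between the groups. By the mean FPKM of the controls the order was Igfbp2 (107 ± 32.6, SD, n = 3), Igfbp7 (46.7 ± 11.9, SD, n = 3), Igfbp4 (18 ± 2.65, SD, n = 3), Igfbp3 (9.33 ± 3.06, SD, n = 3), Igfbp5 (9 ± 2, SD, n = 3), Igfbp6 (8 ± 3.61, SD, n = 3), Igf1r and Igf1 (3 ± 1, SD, n = 3), with Igfbp1 listed at 0, and the control medians gave the same order. Igfbp3, Igfbp5 and Igfbp6 did not differ there beyond their spread. In the cancers it depended on the measure, since by the mean Igfbp2 (63.2 FPKM) came after Igfbp7 (215 FPKM) and Igfbp4 (75.4 FPKM) and before Igfbp3 (44.2 FPKM), and by the median it came after Igfbp3. The order of the medians was Igfbp7 (234 FPKM), Igfbp4 (62), Igfbp3 (35), Igfbp2 (20), Igfbp5 (15), Igf1 (4), and Igfbp6 and Igf1r (2 each). Igfbp2 overlapped all other binding proteins in the cancers, over its range of 2 to 227 FPKM.

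Other genes of the pathway were taken from role lists of 56 genes, all in the table, of which 49 were tested. In limma 6 of 49 were higher and 8 lower in the cancers, where 16.2% and 18.3% of all genes were, and the median log2 fold change of the 49 was -0.15 against -0.04 over all genes. With TPM 16 were higher and 1 was lower, where 50.0% and 3.68% of all genes were, and with quantile normalization 6 were higher and 4 lower, where 13.2% and 13.2% were. Of the other ligands, Igf2, the fetal growth factor that shares the binding proteins, had FPKM of 0, 2, 1, 3 and 2 in the cancers, against 1, 2 and 2 in controls (limma adjusted p = 0.80). Ins1 and Ins2, the insulin genes, were listed at 0 or 1 throughout.

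Among the other receptors 1 of 3 was lower, where 18.3% of all genes were. Igf2r, which clears IGF2 and sorts lysosomal enzymes, had FPKM of 10, 10, 9, 7 and 13 in the cancers, against 13, 18 and 19 in controls (log2 fold change -0.72, limma adjusted p = 0.033). Its highest cancer equalled its lowest control, and with TPM it had 0.19 and did not pass (limma adjusted p = 0.58). Insr, the insulin receptor, had 10, 6, 8, 6 and 11 against 11, 12 and 12 FPKM (limma adjusted p = 0.10). The ratio of Igf1r to Insr was 0.12 to 0.50 in the cancers and 0.36 to 0.50 in the controls, with overlap.

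Of the carrier, the proteases that cut binding proteins and their inhibitors, 1 of 6 tested was higher and 0 were lower, where 16.2% and 18.3% of all genes were. With TPM 2 of 6, Htra3 and Stc1, were higher, where 50.0% of all genes were. Stc1, a stanniocalcin that blocks the IGFBP protease PAPP-A, was listed at 0 in all 3 controls and had 14, 3, 18, 3 and 4 FPKM in the cancers (limma adjusted p = 0.0097, two-sided exact permutation p = 0.0179). Stc1 thus passed the filter through the cancers alone. Pappa, the gene of that protease, was 0 to 2 FPKM in every sample, and Stc2 had 1, 10, 6, 7 and 8 in the cancers, against 13, 11 and 20 in controls (limma adjusted p = 0.11). Of the 5 growth hormone axis genes 0 passed in limma, where 34.5% of all genes did. Jak2, the kinase of the growth hormone receptor, had a log2 fold change of -0.71 (limma adjusted p = 0.058). With TPM Stat5b alone of the 5 passed, at 1.16 (limma adjusted p = 0.024), where 50.0% of all genes were higher. Socs2, a feedback inhibitor of growth hormone signalling, had 4, 16, 5, 24 and 13 FPKM in the cancers, against 28, 29 and 30 in controls, below them in each cancer (limma adjusted p = 0.071).

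Downstream of the receptors, 1 of 8 adaptors was higher and 1 lower, where 16.2% and 18.3% of all genes were. With TPM 4 were higher, Grb14, Grb2, Irs2 and Shc1, and 1 lower, where 50.0% and 3.68% of all genes were. Grb14, an adaptor that inhibits insulin receptor signalling, had 12, 13, 29, 12 and 10 FPKM in the cancers, against 6, 7 and 7 in controls (log2 fold change 0.98, SE 0.32, limma adjusted p = 0.046), and was not called with quantile normalization. Gab1, a docking protein for PI3K, had 1, 3, 1, 3 and 2 in the cancers, against 6, 8 and 9 in controls (log2 fold change -1.58, SE 0.30, limma adjusted p = 0.0078), and was the gene that stayed lower with TPM (-0.92, limma adjusted p = 0.037). Of the 19 genes of PI3K, AKT and mTOR, 6 were lower and 0 higher, where 18.3% and 16.2% of all genes were, with a list median of -0.33. With quantile normalization 3 were lower and 1 higher, where 13.2% and 13.2% of all genes were, and Akt1, Akt2 and Pik3r1 were no longer called. Foxo3, a transcription factor that AKT restrains, had a log2 fold change of -1.19 (SE 0.35, limma adjusted p = 0.035). Mtor, the kinase of growth control, had 5, 5, 5, 7 and 6 FPKM in the cancers, against 10, 15 and 16 in controls (log2 fold change -1.14, SE 0.19, limma adjusted p = 0.0049). Akt2 had a log2 fold change of -0.92 (SE 0.16, limma adjusted p = 0.0060). With TPM, 4 of 19 were higher and 0 lower, where 50.0% and 3.68% of all genes were. The list median was then 0.58 and changed its sign, and it lay below the median of all genes under both scalings (0.58 against 0.81, and -0.33 against -0.04). Most of the list had a mean FPKM of at least 5. Genes at that level had a median of -0.21 with FPKM, nearer to that of the list. Of these genes 2275 of 9138 were called lower when fitted alone.

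The secreted proteins related to the binding proteins by their first domain were higher for 4 of 6 tested and lower for 0, where 16.2% and 18.3% of all genes were. The number higher was 3 of 6 with quantile normalization, where 13.2% of all genes were, 3 of 6 without cancer 5, where 15.4% of all genes were, and 5 of 6 with TPM, where 50.0% of all genes were. Ctgf, a matrix protein induced by TGF-beta and YAP, had 12, 24, 31, 53 and 14 FPKM in the cancers, against 4, 5 and 6 in controls (log2 fold change 2.03, SE 0.46, limma adjusted p = 0.014). Wisp1, of the same CCN family, was listed at 0 in the controls and at 1, 1, 3, 2 and 2 in the cancers (limma adjusted p = 0.0058). Wisp1 thus passed the filter through the cancers alone, at values within a few rounding steps of 0. Esm1, an endothelial proteoglycan, had 4, 2, 2, 2 and 1 FPKM in the cancers, against 0, 0 and 1 in controls (limma adjusted p = 0.025). These values are also near the rounding step, and Esm1 was not called with quantile normalization. Of the IGF2 mRNA-binding proteins, Igf2bp1 and Igf2bp3 were listed at 0 in every sample, and Igf2bp2 had 0, 7, 1, 5 and 4 FPKM in the cancers, against 16, 11 and 8 in controls (limma adjusted p = 0.070).

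**Figure D5:**
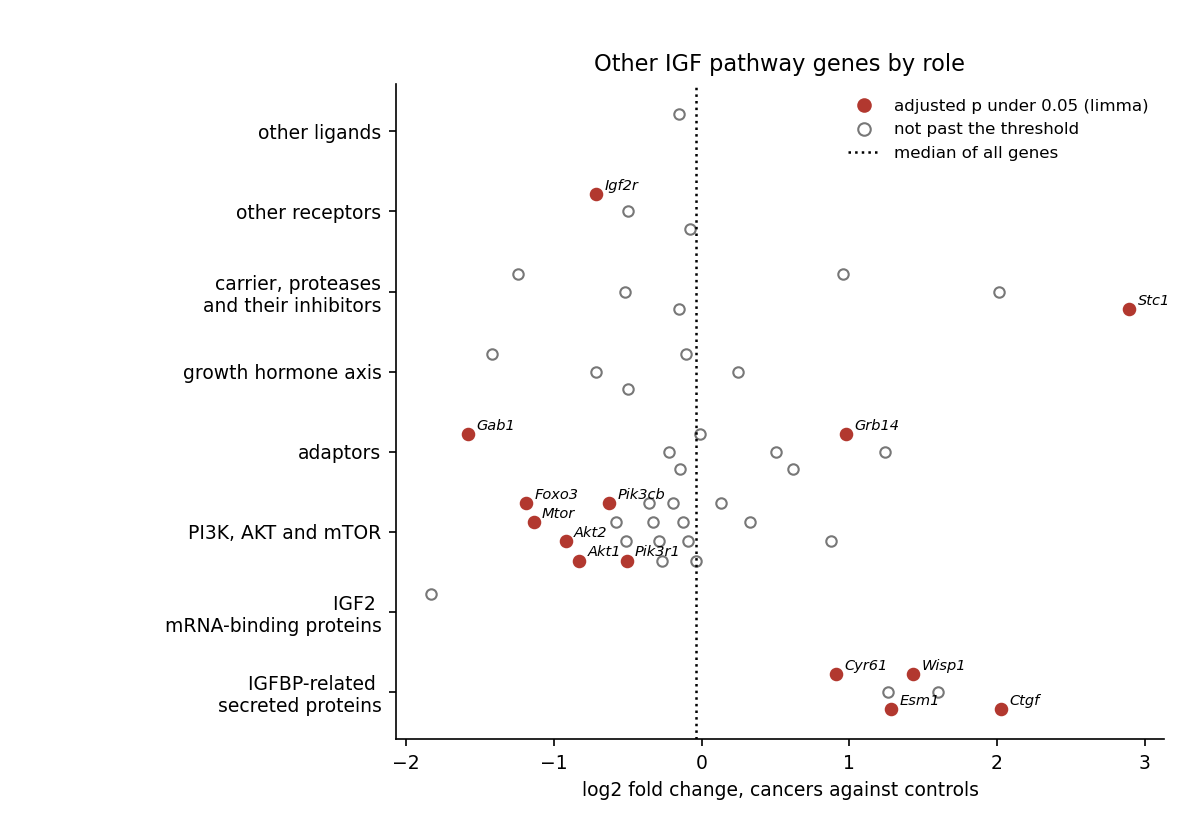
Log2 fold change, cancers against controls, of the 49 other IGF pathway genes tested, by role. Filled points passed an adjusted p under 0.05 in limma and are named, open points did not, and the dotted line is the median of all genes at -0.04. The 6 called genes of PI3K, AKT and mTOR lie to the left of the line and the 4 called genes related to the binding proteins to the right.

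Genes with a profile like that of a member were found among 9125 other genes with a mean FPKM of at least 5, by the root mean square difference between log2(FPKM + 1) profiles over the 8 samples, each centred on its mean. Closest to Igfbp7 were Ccdc80 (difference 0.24), Sparc (0.31) and Bgn (0.34), which code for extracellular matrix proteins. Sparc had FPKM of 138, 133, 160, 121 and 26 in the cancers, against 30, 36 and 24 in controls, with a low value in cancer 5 as well. Closest to Igfbp4 were S100a10 (0.24), Bik (0.30) and Fn1 (0.37), and Fn1, fibronectin, had 32, 44, 36, 23 and 17 FPKM in the cancers, against 5, 7 and 6 in controls. Closest to Igfbp3 were Ctsk (0.29), Mdk (0.45) and F2r (0.46). Igfbp2 had no equally close neighbour, the nearest being Glod5 (0.59), Gjb2 (0.72) and Itih2 (0.73). Glod5 had 0, 15, 8, 39 and 64 FPKM in the cancers, against 37, 49 and 36 in controls. Nearest to Igfbp5 were Tnfrsf12a (0.30), Polr2f (0.37) and Chad (0.38), and to Igfbp6 Pklr (0.42), Ovol2 (0.43) and Mlph (0.43). All differences rest on the same 8 samples.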

How the data were processed

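RNA of 5 SCJ cancers and 3 control SCJ tissues was sequenced with a strand-specific poly(A) kit, per the labels. The authors trimmed reads with cutadapt 1.8 and quantified UCSC mm10 genes with cuffquant and cuffnorm 2.2.1, and the submitters' processing notes also list TopHat2 2.0.13. The cuffnorm normalization option is not given in the sources used here. The deposited values are FPKM, which the authors rounded to whole numbers (100% of values), so they were handled as a score rather than as counts. Depth is unknown, and the number of samples limits the precision.

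Samples were grouped by title. Genes that reached 1 FPKM in 3 or more samples (14357 of 23361) entered limma 3.58.1 (eBayes with trend, R 4.3.3) as log2(FPKM + 1), and p-values were adjusted by Benjamini-Hochberg over all of them, after a test of the script on simulated data. Single genes were also compared by the two-sided exact permutation test over all 56 assignments. The members and lists were chosen with earlier results of these data known. Named are all members, the deleted genes, up to 3 called genes of each pathway list with the largest change, Igf2, Insr, Igf2r and Igfals, marker genes, and the 3 genes with the nearest profile to each member with a mean FPKM of at least 5. Other genes were named after their values were seen: Ins1, Ins2, Pappa, Stc2, Jak2, Stat5b, Socs2, Akt1, Pik3r1, Htra3, Grb2, Shc1, Igf2bp1, Igf2bp2, Igf2bp3 and Polr2b, and in the closing section Pappa2, Nov, Irs2 and Irs4. Of the marker lists, 1 gene was not matched. Alternatives were a pseudocount of 0.1, no filter, a mean FPKM of at least 5, TPM, quantile normalization, eBayes without trend, a replicate block and leaving out each sample.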

Additional observations from a re-analysis of the deposited data

Results flagged for a closer look

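By the gap of 1 cancer to the nearest of the others, 8 of 16 results examined (the FPKM of 9 members and the shares of 7 binding proteins) stood apart. Chance would give about 0.8 for independent, normally distributed values, which rounded FPKM need not be. The shares also share their sum, and 5 of the 8 are values of the same cancer, so the excess over 0.8 is overstated. In cancer 5, Igfbp1 had 20 FPKM against 0 in the other cancers, Igfbp2 had 227 against 2 to 49, the Igfbp1 share was 5.35% against 0%, the Igfbp2 share was 60.7% against 0.63% to 8.42%, and the Igfbp7 share was 11% against 53.7% to 65.7%. In cancer 4, Igf1 had 7 FPKM against 3 to 4, and Igfbp3 had 90 against 22 to 40. In cancer 2, Igfbp6 had 10 FPKM against 1 to 3.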

How the results depend on the processing

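No log2 fold change of a member changed its sign under any alternative run. The call of Igfbp4 held under all of them, and that of Igfbp3 under all but the replicate block. With TPM, Igf1 (1.26), Igfbp5 (1.39) and Igfbp7 (2.91) passed and Igf1r (-0.33) did not. Igfbp7 also passed with quantile normalization (2.38) and with a mean FPKM of at least 5 (1.94, with fewer genes tested), a filter that removed Igf1 and Igf1r. When each sample was left out, the log2 fold change ran from 0.23 to 0.60 for Igf1, -1.15 to -0.88 for Igf1r, -2.74 to -1.17 for Igfbp2, 1.72 to 2.22 for Igfbp3, 1.74 to 2.08 for Igfbp4, 0.15 to 0.71 for Igfbp5, -1.55 to -0.87 for Igfbp6 and 1.70 to 2.46 for Igfbp7. Samples of the same number had deviations from their group means that correlated at -0.02, -0.19 and -0.10. These values gave no sign of pairing by number but cannot exclude it. No control shares the numbers of cancers 4 and 5, so the replicate block in effect compares cancers 1 to 3 with controls 1 to 3. It is therefore not an alternative on all samples, and cancer 5 does not count in it. There Igf1r (-1.18, adjusted p = 0.068) and Igfbp3 (1.90, adjusted p = 0.052) were not called and Igfbp7 (2.32, adjusted p = 0.039) was, all from limma. Of all genes 4948 were called, 2326 higher and 2622 lower. The counts were 7704, 7176 and 528 with TPM, and 1534, 982 and 552 with the replicate block. With a mean FPKM of at least 5, 1244 were higher. Without each sample in turn they ran from 2490 to 5252 in all, 1369 to 2466 higher and 1121 to 2786 lower. The total was 2490, 2643 and 2815 without control 1, 2 and 3, and 1702 genes were lower without cancer 3. For these shifts the cause was not tested. The unknown depth and the rounding limit what can be said of Igf1, Igf1r and Igfbp6, at 1 to 12 FPKM.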

Other observations

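Some genes of the pathway lists were high in 1 to 3 of the cancers and did not pass the test with FPKM. They were chosen after their values were seen. Pappa2, a protease that cuts IGFBP3 and IGFBP5, was listed at 0, 1, 0, 14 and 35 FPKM in cancers 1 to 5 and at 0 in the 3 controls (log2 fold change 2.02, limma adjusted p = 0.23). Of the 2 cancers with the most Pappa2, cancer 5 had the least Igfbp3 of the cancers (22 FPKM) and cancer 4 the most (90 FPKM). Nov, a CCN protein, had 2, 5, 3, 217 and 15 FPKM in the cancers and 4 in each control (limma adjusted p = 0.47). Irs2, a docking protein of the insulin and IGF1 receptors, had 28, 6, 20, 6 and 51 FPKM in the cancers, against 7, 6 and 6 in controls (limma adjusted p = 0.18), was highest in cancer 5, and passed with TPM (log2 fold change 2.18, limma adjusted p = 0.039). Irs4 was listed at 0 in every sample.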
